A study of Homo sapiens with 12 samples.

Results

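Histone genes were examined in RIP-seq peak lists of METTL16, eIF3a and eIF3b from HepG2 cells. The genes were taken by symbol alone, as every gene name in the lists that begins with HIST1H to HIST4H, H1F, H2AF, H2BF or H3F, or with the current forms of these symbols. The rule found 35 of the 10830 gene names that carried a peak in any list. Of these, 24 code for replication-dependent histones, 10 give polyadenylated mRNAs, and H2AFX gives both mRNA forms. All 35 names are older symbols, and each matched 1 current gene.

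In RIP-seq, an antibody pulls down a protein with its bound RNA, which is sequenced beside input RNA set aside from the lysate. The series held 6 RIP samples, 2 for each of the 3 proteins, and 6 inputs, which entered the lists through peak calling only. METTL16 is an RNA methyltransferase, and eIF3a and eIF3b are subunits of translation initiation factor 3. The question set by the series was which transcripts these proteins bind in HepG2, an established human liver cancer line. The cells were HepG2 lines infected to express 3XFlag-METTL16 from pmiRNA1, 3XFlag-eIF3a from pSIN4 or 3XFlag-eIF3b from pSIN4, so each bait was an overexpressed tagged protein and every RIP sample of a protein came from the line made for it. All cells were cross-linked with ultraviolet light and their lysates sonicated before the pull-down. The labels name a Flag antibody for METTL16 and eIF3b and an eIF3a antibody for eIF3a, whereas the lists are named for Flag throughout, so antibody and protein cannot be told apart if the labels hold. The study's methods call the replicates biological, and the labels do not say which culture each came from.

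Replication-dependent histone genes lie in clusters, have no introns in their main transcripts, and are expressed mainly in S phase, when new DNA needs histones. Their mRNAs end in a conserved stem-loop bound by SLBP instead of a poly(A) tail. Variant histones such as H3.3, H2A.Z and macroH2A are made throughout the cell cycle from ordinary polyadenylated mRNAs. H2AX, the variant phosphorylated at DNA breaks, has both a stem-loop mRNA and a longer polyadenylated one.

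The stem-loop was searched for on GRCh38 as a 16-base element with a 6-base-pair stem, a 4-base loop and the conserved GG, TT and CC, within 100 bases after the stop codon. It was found in 81 of 19924 protein-coding windows (0.407%), of which 69 belonged to annotated histone genes. All 24 replication-dependent genes and H2AFX held it, and none of the 10 polyadenylated genes did. The sequences below show the forms it took, with the stem-loop in capitals and 5 bases of the 3′ UTR on each side, written as DNA 5′ to 3′ on the mRNA strand. HIST1H1E stands for the form of 16 genes and HIST1H2BC for that of 4.

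HIST1H1E: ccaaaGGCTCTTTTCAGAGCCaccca
HIST1H2BC: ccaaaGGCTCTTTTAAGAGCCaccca
HIST1H4E: tcaaaGGCCCTTTTCAGGGCCgccca
HIST1H4I: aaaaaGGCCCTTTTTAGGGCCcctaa
HIST1H2AK: aaaaaGGTTCTTTTCAGAGCCaccta
H2AFX: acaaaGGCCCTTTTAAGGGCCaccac

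These 6 stem-loops start 45, 37, 45, 34, 47 and 50 bases after the stop codon, in the order printed. In the same order they lie at chr6:26157095-26157110 (+), chr6:26123472-26123487 (-), chr6:26205001-26205016 (+), chr6:27139654-27139669 (+), chr6:27837885-27837900 (-) and chr11:119094898-119094913 (-).

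The annotation of GENCODE release 44 held 90 protein-coding histone genes. The lists named 24 of its 71 replication-dependent genes (33.8%) and 10 of its 15 polyadenylated ones (66.7%). For scale, 10755 names in the lists matched an annotated gene of any kind, and the annotation gave 19924 protein-coding stop codon windows. By family, the replication-dependent genes with a peak were 5 of 6 linker histone H1 genes, 3 of 17 for H2A, 8 of 19 for H2B, 5 of 14 for H3 and 3 of 15 for H4. Of the 24, 22 lay on chromosome 6 and 2 on chromosome 1.

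A replication-dependent gene had a peak most often in the second METTL16 list and in no case in the second eIF3a list. The number with a peak was 10 and 21 of 24 in METTL16 replicates 1 and 2, 10 and 0 in eIF3a, and 6 and 6 in eIF3b. The shares were 41.7% and 87.5% for METTL16, 41.7% and 0% for eIF3a, and 25% in each eIF3b list. Over all gene names in any list, the shares in the same order were 53.8%, 58.5%, 75.4%, 48.3%, 74.5% and 69.9%. The replication-dependent share thus lay below that of all genes in 5 lists and above it in METTL16 replicate 2. The 95% Wilson interval for that list was 69.0% to 95.7%. For eIF3a replicate 2, with 0 of 24, it was 0% to 13.8%. These bounds cover counting error only, with the 24 genes taken as given. A gene entered the 24 only through a peak in some list, and 8 entered through METTL16 replicate 2 alone. Those 8 count by construction in that list and as absent from the other 5. Part of the contrast between lists thus follows from how the genes were chosen. The shares of all gene names carry the same requirement.

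The polyadenylated genes had a peak in 9 and 7 of 10 for METTL16, 8 and 3 for eIF3a, and 9 and 6 for eIF3b. Their shares lay above that of all genes in 4 lists and below it in eIF3a replicate 2 (30%) and eIF3b replicate 2 (60%). With 10 genes the intervals were wide, from 10.8% to 60.3% in eIF3a replicate 2 and from 59.6% to 98.2% in METTL16 replicate 1. In a bulk lysate, fewer cells in S phase and less histone mRNA per cell cannot be told apart. Whether tail-less mRNAs were kept in these libraries is not settled, since the labels name ribosomal RNA depletion together with an mRNA kit.

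**Figure D1:**
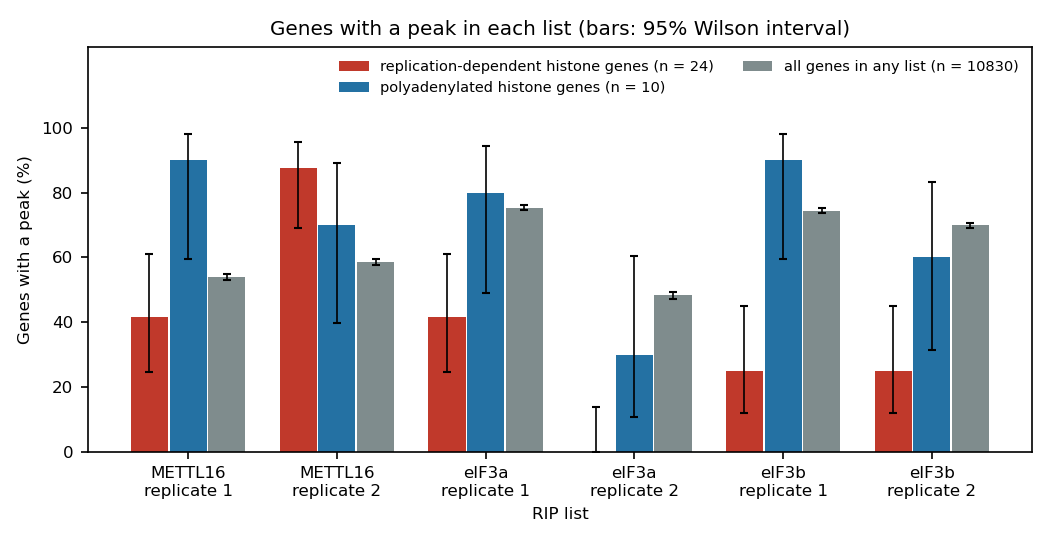
Percent of genes with a peak (y axis) in each of the 6 RIP lists (x axis) for 24 replication-dependent histone genes (red), 10 polyadenylated ones (blue) and all 10830 gene names in any list (grey); bars carry 95% Wilson intervals. The red bar is highest in METTL16 replicate 2 (87.5%) and 0% in eIF3a replicate 2.

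The mRNAs of the classes also differ in length, which sets how much sequence a peak can fall on. The median length was 499 bases for the replication-dependent genes, 1716 for the polyadenylated ones and 3465 for all genes matched. Of the 462 other genes with an mRNA of at most 1000 bases, 39.2% and 64.5% had a peak in the METTL16 lists, 45.9% and 10.6% in the eIF3a lists, and 50.2% and 42.9% in the eIF3b lists. Short mRNAs in general thus also had their highest share in METTL16 replicate 2 and their lowest in eIF3a replicate 2. The replication-dependent share exceeded that of short genes in both METTL16 lists and was lower in the other 4. The part of length in these counts was not tested further.

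Genes with a peak in both replicates of a protein are called bound here. METTL16 bound 10 of 24 replication-dependent genes (41.7%), against 42.6% of all genes. eIF3a bound none of them, against 42.4% of all genes, and eIF3b bound 3 (12.5%), against 60% of all genes. The METTL16 share of replication-dependent genes was therefore at the background. Of the 10 polyadenylated genes, METTL16 bound 7, eIF3a 3 and eIF3b 5.

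The replication-dependent genes bound by METTL16 were HIST1H1B, HIST1H1E, HIST1H2BC, HIST1H2BE, HIST1H2BN, HIST1H3D, HIST1H4E, HIST1H4I, HIST2H2BE and HIST3H2A. HIST1H1B, HIST1H1E and HIST3H2A were also the 3 bound by eIF3b. The absence of eIF3a calls rested on 1 list. Without eIF3a replicate 2, 10 replication-dependent genes had an eIF3a peak, and without METTL16 replicate 1, 21 had a METTL16 peak.

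A peak in a single list was common among the replication-dependent genes. It was seen for 11 of 24 (45.8%), against 1739 of all 10830, and none of the 24 had a peak in all 6 lists, against 25.2% of all genes. Of these 11, 8 had their peak in METTL16 replicate 2, against 23.6% of the 1739. They were HIST1H2AE and HIST1H2AK for H2A, HIST1H2BF and HIST1H2BM for H2B, HIST1H3B, HIST1H3C and HIST1H3H for H3, and HIST1H4C for H4. HIST1H1D and HIST1H3I had theirs in eIF3a replicate 1, and HIST1H1A in eIF3b replicate 1. In all, 12 replication-dependent genes had a peak in METTL16 lists and in no eIF3 list, against 5.43% of all genes and 22.9% of the 462 other genes with short mRNAs.

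**Figure D2:**
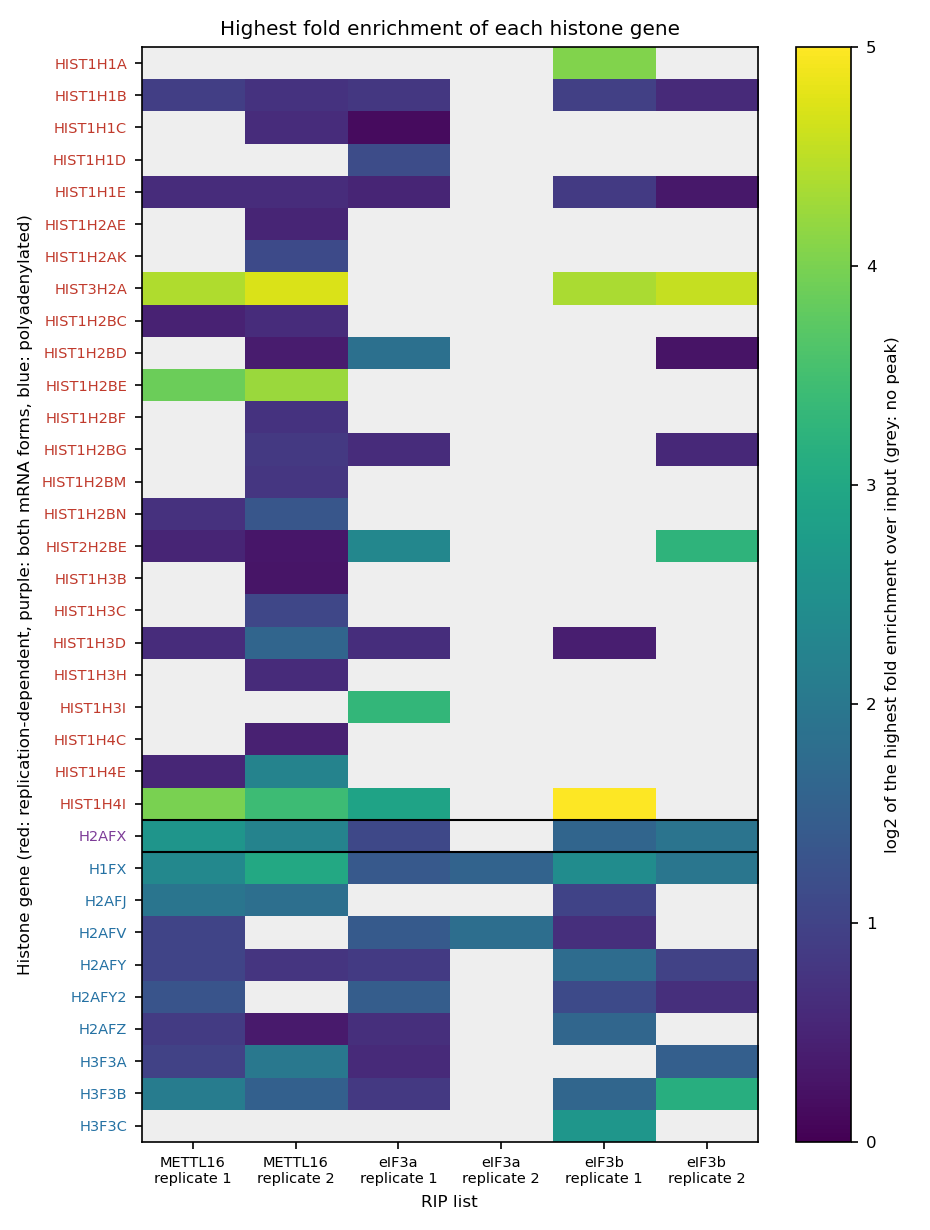
Heat map of the log2 of the highest fold enrichment over input for 34 histone genes (rows; red names replication-dependent, purple H2AFX, blue polyadenylated) in the 6 RIP lists (columns); grey cells have no peak. H1FX is filled in all 6 columns, and the eIF3a replicate 2 column is grey for all 24 replication-dependent genes.

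The fold enrichment of a gene was taken as that of its highest peak, a ratio of RIP to input given by the authors. For replication-dependent genes with a peak, its median was 1.59 and 1.67 in the METTL16 lists, 1.99 in eIF3a replicate 1, and 9.21 and 1.51 in the eIF3b lists. For polyadenylated genes the medians were 2.47 and 3.42 for METTL16, 2.21 and 3.02 for eIF3a, and 3.16 and 3.38 for eIF3b. For all genes they lay between 3.62 and 4.64. Both histone classes were thus below the all-gene median in every list with a value, except the replication-dependent class in eIF3b replicate 1, where the median was set by 6 genes from 1.33-fold to 31.6-fold. Short genes had medians of 2.05 to 4.44.

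Among replication-dependent peaks, the weakly enriched ones had smaller p-values by median than the strongly enriched ones, though their log10 p ranged from -200 to -2.65. The 41 peaks under 4-fold, on 19 genes, had a median of 1.55-fold and a median log10 p of -13.8. The 16 peaks of at least 4-fold, on 7 genes, had a median of 15.2-fold and a median log10 p of -4.13. Without read counts, the depth behind these peaks is unknown. Among the peaks of at least 4-fold, HIST1H4E in METTL16 replicate 2 stood apart, with 4.69-fold enrichment and a log10 p of -779.

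**Figure D3:**
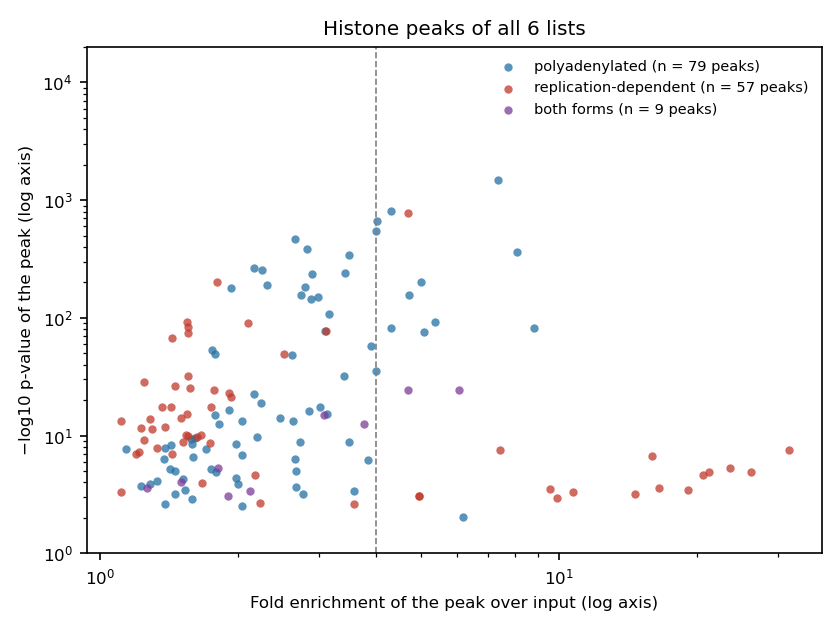
Fold enrichment over input (x axis, log) against -log10 p-value (y axis, log) for all peaks on histone genes in the 6 lists: 57 on replication-dependent genes (red), 79 on polyadenylated genes (blue) and 9 on H2AFX (purple); the dashed line marks 4-fold. Red points right of the line lie low, with 1 exception near the top at 4.69-fold.

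Linker histones bind the DNA between nucleosomes, and they were the replication-dependent family seen most evenly across proteins. HIST1H1E, which codes for H1.4, had 1.55-fold and 1.56-fold peaks in the METTL16 lists, 1.44-fold in eIF3a replicate 1, no peak in eIF3a replicate 2, and 1.80-fold and 1.25-fold in the eIF3b lists. HIST1H1B, which codes for H1.5, had 1.91-fold and 1.66-fold for METTL16, 1.75-fold in eIF3a replicate 1, none in replicate 2, and 1.93-fold and 1.52-fold for eIF3b. The METTL16 and eIF3b ranges overlapped for both genes. Their log10 p reached -200 for HIST1H1E, in eIF3b replicate 1, and -22.9 for HIST1H1B, in METTL16 replicate 1.

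The 5 peaks on each of these genes overlapped in the coding sequence, and their common bases lay in the part for the lysine-rich C-terminal tail. Those of HIST1H1E shared 147 of the 321 bases under any peak, at chr6:26156708-26156854 (+), in codons 106 to 155 of 219. Those of HIST1H1B shared 118 of 293, at chr6:27867026-27867143 (-), in codons 129 to 168 of 226. The shared stretches are printed 5′ to 3′ on the mRNA strand, with bases of lysine codons in capitals.

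HIST1H1E: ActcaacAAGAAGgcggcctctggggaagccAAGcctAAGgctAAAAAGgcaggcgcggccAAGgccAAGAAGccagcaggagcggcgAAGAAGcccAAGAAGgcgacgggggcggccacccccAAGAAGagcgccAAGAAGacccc
HIST1H1B: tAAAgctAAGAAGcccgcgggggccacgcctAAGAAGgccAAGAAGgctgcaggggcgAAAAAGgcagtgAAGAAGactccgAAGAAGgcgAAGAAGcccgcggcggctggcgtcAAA

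Paired lysine codons recur along both stretches. Over the codons under any peak, lysine made up 29.0% for HIST1H1E, against 27.7% outside, and 36.1% for HIST1H1B, against 23.3% outside. The other linker histone genes were seen in fewer lists. HIST1H1C, for H1.2, had 1.56-fold in METTL16 replicate 2 and 1.11-fold in eIF3a replicate 1, with 26.3% lysine codons under peaks and 31.6% outside. HIST1H1D, for H1.3, had 2.23-fold in eIF3a replicate 1 alone, with 40% under the peak and 26.4% outside. HIST1H1A, for H1.1, had 16.5-fold with a log10 p of -3.61 in eIF3b replicate 1 alone, with 41.4% and 24.2%. Among the 5 genes, only HIST1H1B had a clearly higher lysine share under peaks of several lists. HIST1H1E differed little, and HIST1H1C went the other way. HIST1H1A and HIST1H1D were higher under 1 peak each, over 29 and 20 codons. These shares are a description without a test.

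Among core histones, which form the nucleosome, HIST3H2A was the most enriched by mean log2 fold. This H2A gene had 21.2-fold and 26.2-fold peaks for METTL16 and 20.6-fold and 23.5-fold for eIF3b, and none in either eIF3a list. The METTL16 and eIF3b values overlapped, and log10 p lay between -5.27 and -4.65. The 4 peaks shared 146 bases in codons 55 to 103 of 130, at chr1:228457510-228457655 (-), printed to show the most enriched histone stretch.

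HIST3H2A: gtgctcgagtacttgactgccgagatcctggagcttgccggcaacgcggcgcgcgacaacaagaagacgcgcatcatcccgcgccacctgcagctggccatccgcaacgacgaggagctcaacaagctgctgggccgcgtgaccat

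HIST1H4I, an H4 gene, had 15.9-fold and 10.7-fold for METTL16, 7.44-fold in eIF3a replicate 1 and 31.6-fold in eIF3b replicate 1, with no peak in the second list of either eIF3 subunit. HIST1H2BE, an H2B gene, had 14.6-fold and 19.1-fold for METTL16 and no peak in any eIF3 list, with log10 p of -3.17 and -3.44. Both genes had only peaks of at least 4-fold, and 21.9% of the 50-base windows of the HIST1H2BE mRNA were shared with other genes. HIST1H3I, an H3 gene, had 9.92-fold in eIF3a replicate 1 alone, with a log10 p of -2.95.

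HIST1H4E, also for H4, had 1.46-fold with a log10 p of -26.4 in METTL16 replicate 1 and 4.69-fold in replicate 2, and no peak in any eIF3 list. The second peak covered 91.5% of the mRNA, against 42.2% for the first, and ranked 18 by p among all genes of its list. The peaks of the 2 replicates thus differed in both fold and extent. Their common 174 bases, at chr6:26204761-26204934 (+) in codons 39 to 97 of 103, read as follows.

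HIST1H4E: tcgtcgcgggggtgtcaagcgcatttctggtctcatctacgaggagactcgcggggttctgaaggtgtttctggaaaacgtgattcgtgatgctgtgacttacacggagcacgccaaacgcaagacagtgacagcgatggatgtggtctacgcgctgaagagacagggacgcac

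HIST1H2BC and HIST1H2BN were further genes with peaks in both METTL16 lists and in no eIF3 list, at 1.39-fold and 1.56-fold for the former and 1.63-fold and 2.52-fold for the latter. HIST1H2BD and HIST1H2BG each had a peak in METTL16 replicate 2, eIF3a replicate 1 and eIF3b replicate 2, from 1.20-fold to 3.58-fold and from 1.50-fold to 1.77-fold. HIST1H3D had 1.56-fold and 3.11-fold for METTL16, 1.57-fold in eIF3a replicate 1 and 1.33-fold in eIF3b replicate 1. For HIST1H3D, 96.5% of the windows lie within the same-strand gene ENSG00000282988, so its reads cannot be assigned to HIST1H3D alone. Near-identical copies raise the same doubt more widely, as 10 of the 24 replication-dependent genes shared at least 1 window with another gene. Among the 14 without any, METTL16 bound 3, a smaller share than the 10 of all 24 and the 42.6% of all genes.

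Replication-dependent peaks lay on the coding sequence and stopped short of the stem-loop. In each list with such peaks, at least 84.1% of their mRNA bases were coding, whereas coding sequence made up 71.6% of the mRNA bases of all 24 genes. That 71.6% is lowered by HIST2H2BE, with 381 coding bases in an mRNA of 2224. It is also not limited to the genes with a peak in each list, so the gap overstates any preference for coding sequence. Of 57 peaks, 48 lay upstream of the stem-loop, 5 overlapped it and 4 lay downstream. The 5 were on 3 genes, namely HIST1H4I in METTL16 replicate 1, eIF3a replicate 1 and eIF3b replicate 1, and HIST1H4E and HIST1H2AK in METTL16 replicate 2. The stem-loops of these 3 genes are among those printed above.

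The 4 downstream peaks were on 2 H2B genes that also have longer annotated transcripts. HIST2H2BE had 2 of them in eIF3a replicate 1, each 4.96-fold, and 1 of 9.54-fold in eIF3b replicate 2. Its coding sequence and 5′ UTR carried 1.43-fold and 1.23-fold peaks for METTL16, 1.29-fold in eIF3a replicate 1 and 1.11-fold in eIF3b replicate 2. HIST1H2BD had 1 of 3.58-fold in eIF3a replicate 1, on a distal exon outside its stem-loop mRNA. No METTL16 peak lay beyond the stem-loop of HIST2H2BE or HIST1H2BD. Other genes of the class, such as HIST1H2BC, HIST1H2BE, HIST1H2BN and HIST3H2A, also have annotated spans far longer than their stem-loop mRNA. Peaks on the coding sequence of such genes cannot be assigned to the stem-loop mRNA alone.

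**Figure D4:**
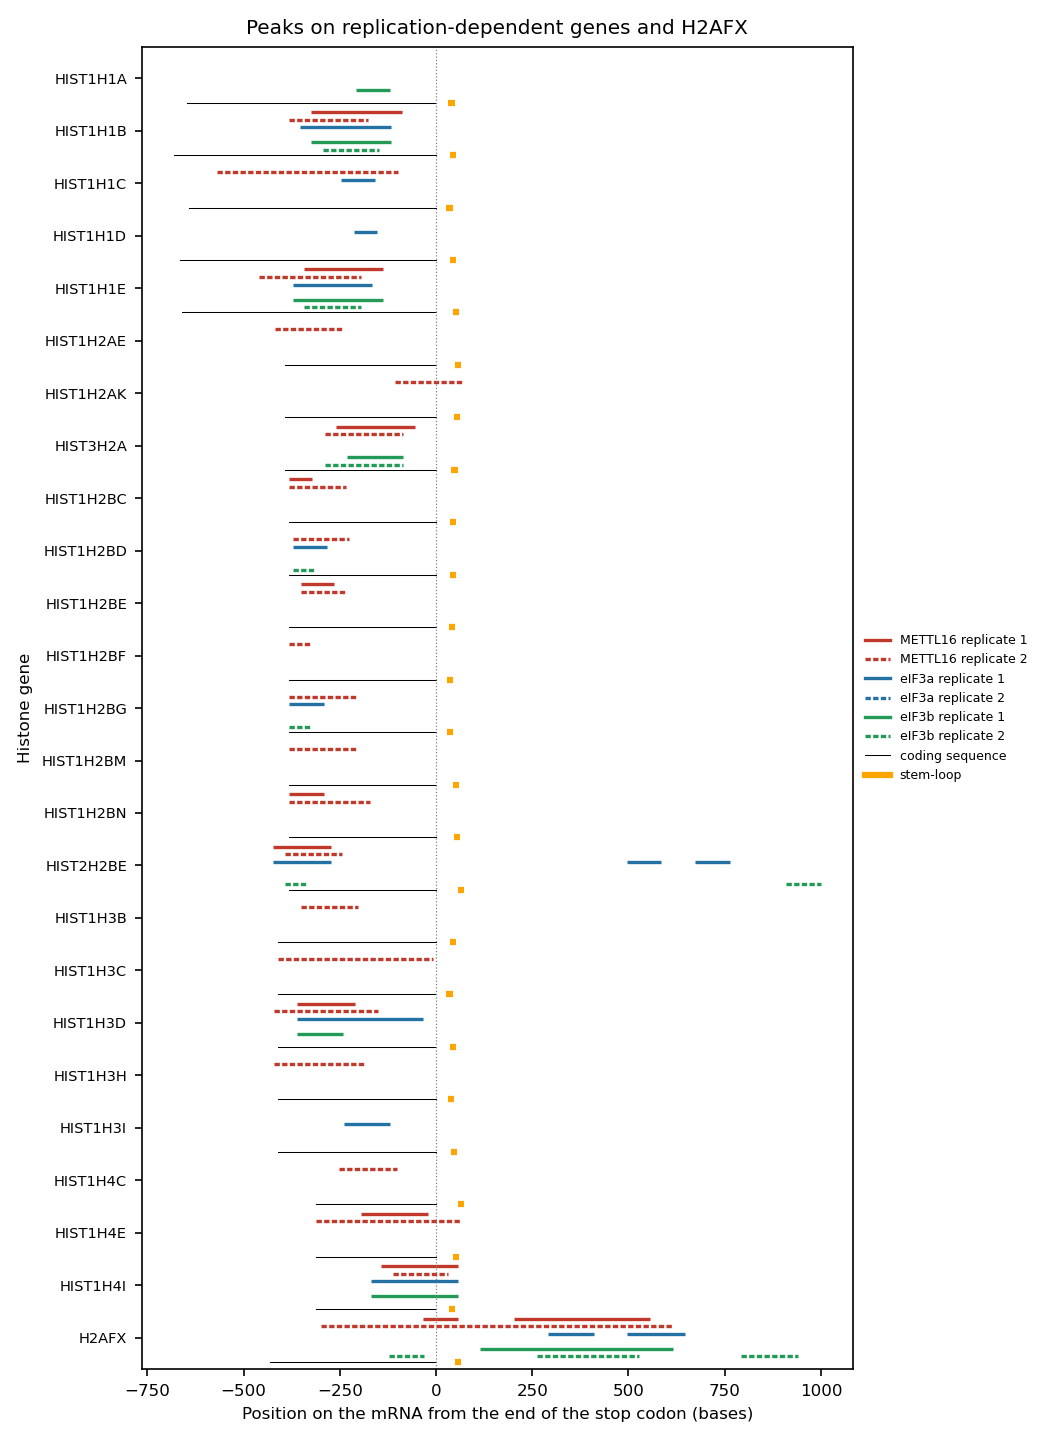
Peaks on the mRNAs of the 24 replication-dependent histone genes and H2AFX (y axis) by position from the end of the stop codon in bases (x axis); coloured lines are peaks of the 6 lists, black lines coding sequence and orange marks the stem-loop. Most peaks end left of the orange marks, whereas those of H2AFX and HIST2H2BE also lie to the right; the HIST1H2BD peak on a distal exon is off this mRNA and not drawn.

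H2AFX had a peak in 5 of 6 lists, at 6.07-fold and 4.69-fold for METTL16, 2.12-fold in eIF3a replicate 1, none in eIF3a replicate 2, and 3.08-fold and 3.77-fold for eIF3b. The METTL16 values were the highest and did not overlap those of eIF3b. Its strongest peak in each of the 5 lists lay wholly or mostly in the 3′ UTR beyond the stem-loop, which only the polyadenylated form contains. In eIF3a replicate 1 and eIF3b replicate 1, every H2AFX peak lay beyond the stem-loop.

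H1FX, which codes for the linker histone H1.10, had a peak in all 6 lists. It had 5.07-fold and 8.11-fold for METTL16, 2.62-fold and 3.02-fold for eIF3a, and 5.37-fold and 3.89-fold for eIF3b. The eIF3a values were the lowest and did not overlap those of the other proteins as deposited.

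limma with each list centred on its median called no difference for H1FX. It tested the 2730 genes with a peak in all 6 lists and called 0 of them (0%) in each of the 3 comparisons, with 301, 215 and 185 genes at an unadjusted p under 0.05 for METTL16 against eIF3a, METTL16 against eIF3b and eIF3a against eIF3b. For H1FX, METTL16 minus eIF3a was 0.77 ± 0.47 on the log2 scale (SE, limma adjusted p = 0.577). Against eIF3b, METTL16 differed by 0.60 ± 0.47 (limma adjusted p = 0.817). eIF3a minus eIF3b was -0.17 ± 0.47 (limma adjusted p = 0.981). The lower eIF3a values of H1FX did not pass this test, and with 2 lists per protein that does not show equal enrichment.

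The 3945 genes with a peak in all 4 METTL16 and eIF3b lists included H1FX, H2AFX, H2AFY, H3F3B, HIST1H1B, HIST1H1E and HIST3H2A. limma called 0 of the 3945 (0%), with 336 at an unadjusted p under 0.05. The largest difference among those named was for H2AFX, at 0.69 ± 0.47 on the log2 scale, METTL16 minus eIF3b (SE, limma adjusted p = 0.727). HIST1H1B, HIST1H1E and HIST3H2A differed by 0.10, 0.10 and 0.14, each with an SE of 0.42 to 0.45. These intervals do not show equal binding.

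H1FX carried 12 peaks in the 6 lists. They lay mostly over the 5′ UTR and the coding sequence, with 356 bases common to all lists, and 10 of its 12 peaks also overlapped H1-10-AS1 on the other strand. Whether counting used strand is not given in the sources used here, so the sense and antisense genes cannot be told apart there.

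H3F3A and H3F3B both code for H3.3, the H3 variant deposited outside replication. H3F3B had 4.30-fold and 2.88-fold for METTL16, 1.78-fold in eIF3a replicate 1, none in eIF3a replicate 2, and 3.16-fold and 8.81-fold for eIF3b. H3F3A had 1.98-fold and 4-fold for METTL16, 1.52-fold in eIF3a replicate 1, and 2.86-fold in eIF3b replicate 2. Its related gene H3F3C had a 6.18-fold peak with a log10 p of -2.05 in eIF3b replicate 1 alone. The H3F3B peaks shared 477 of 597 bases (79.9%), the highest share of the 23 histone genes with peaks in at least 2 lists. Of the windows of H3F3A, 72.7% were shared with other annotated genes, against 8.28% for H3F3B and 20.7% for H3F3C.

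H2AFZ and H2AFV code for the 2 forms of H2A.Z, a variant found at promoters. H2AFZ had 1.82-fold and 1.29-fold for METTL16, 1.59-fold in eIF3a replicate 1 and 3.12-fold in eIF3b replicate 1. All 4 of its peaks also overlapped H2AZ1-DT on the other strand. H2AFV had 2.04-fold in METTL16 replicate 1, 2.68-fold and 3.49-fold for eIF3a, and 1.59-fold in eIF3b replicate 1, and was thus bound by eIF3a. All of its peaks lay outside its canonical mRNA, on other exons of the gene, and no base was common to its 4 lists.

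H2AFJ, for H2A.J, had 3.83-fold and 3.57-fold for METTL16, 2.00-fold in eIF3b replicate 1 and none for eIF3a. Its METTL16 peaks lay around the stop codon and its eIF3b peak at the start of the coding sequence, with no common base. H2AFY, for macroH2A1, a variant with a large extra domain, had 2.04-fold and 1.70-fold for METTL16, 1.79-fold in eIF3a replicate 1, and 3.41-fold and 1.98-fold for eIF3b. H2AFY2, for macroH2A2, had 2.47-fold in METTL16 replicate 1, 2.77-fold in eIF3a replicate 1, and 2.17-fold and 1.6-fold for eIF3b.

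**Figure D5:**
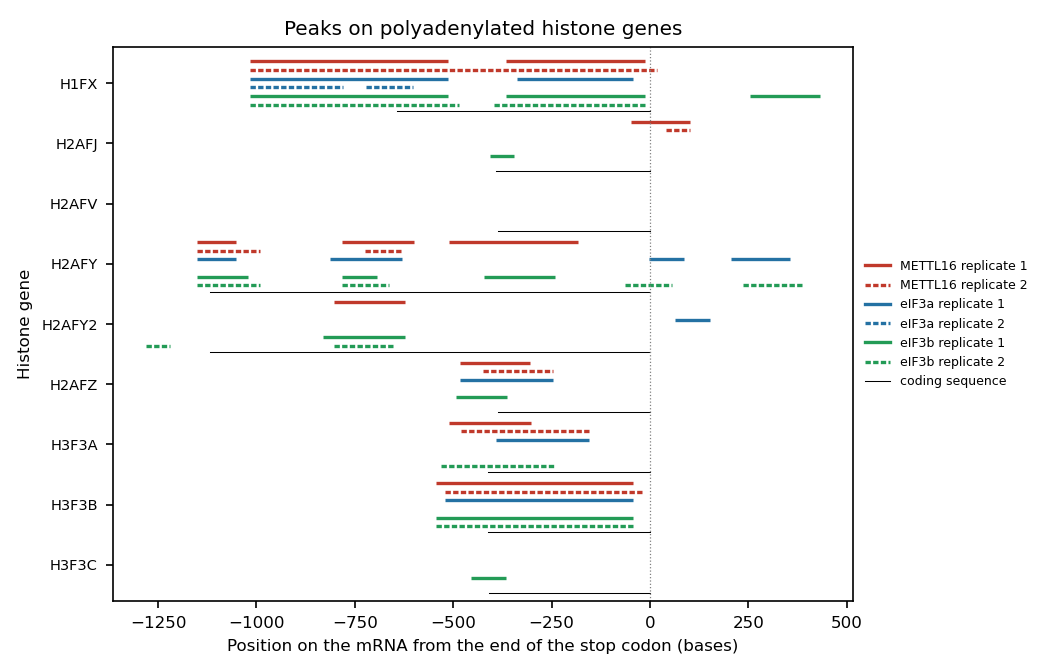
Peaks on the canonical mRNAs of 9 polyadenylated histone genes (y axis) by position from the end of the stop codon in bases (x axis); coloured lines are peaks of the 6 lists (solid replicate 1, dashed replicate 2) and black lines coding sequence. H1FX has peaks of all 6 lists at the 5′ end, and the H2AFV row is empty since its peaks lie on other exons.

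Peaks on polyadenylated histone genes were spread over the mRNA more than those of the replication-dependent class. Coding bases made up 48.8% to 55.8% of their mRNA bases in 5 lists and 14.5% in eIF3a replicate 2, while coding sequence was 34.5% of these mRNAs. The 34.5% covers all 10 genes, also H2AFV, which had no peak on its canonical mRNA. The 5′ UTR held 24.1% to 25.9% in the same 5 lists and 55.7% in eIF3a replicate 2, where only 3 of the 10 genes had peaks.

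Base composition differed between the classes and between the lists. Median GC content was 56.3% for replication-dependent mRNAs, 48.4% for polyadenylated ones and 49.6% for all genes. Mean GC of all peaks was 59.0% and 60.8% in the METTL16 lists, 53.7% and 53.1% in the eIF3a lists, and 58.1% and 54.1% in the eIF3b lists. The list with the most replication-dependent genes had the highest GC and the list with none the lowest, but the lists between did not follow this order. METTL16 replicate 1 and eIF3a replicate 1 each had 10 such genes, at 59.0% and 53.7% GC, and eIF3b replicate 1 had 6 at 58.1%. The part of GC in these counts was not tested.

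ACAGAGA, the letters around the adenosine of U6 RNA known to be methylated by METTL16, was looked for in every peak on the transcript strand. None of the histone peaks held it in any list, with 27 and 32 peaks for METTL16, 31 and 9 for eIF3a, and 22 and 24 for eIF3b. Of all peaks, 3.27% to 5.36% per list held it. With so few histone peaks this says only that these letters were not in these windows.

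Genes that make or handle histone mRNA and protein were described from lists chosen with earlier results of these data known. All 22 genes for transcription and 3′ end processing of histone mRNA had a peak in at least 1 list. For scale, here and for the sets below, 10755 list names matched an annotated gene, beside 19924 protein-coding stop codon windows in the annotation. Of the 22, METTL16 bound 10 (against 42.6% of all genes), eIF3a 11 (against 42.4%) and eIF3b 12 (against 60%). SLBP, which binds the stem-loop, had 3.97-fold and 7.91-fold for METTL16, none for eIF3a, and 3.56-fold in eIF3b replicate 1. LSM11, of the U7 particle that cuts histone pre-mRNA, had peaks in all 6 lists from 6.55-fold to 15.9-fold. NPAT, which activates histone genes in S phase, had none for METTL16, 2.17-fold and 5.51-fold for eIF3a, and 3.43-fold and 14.7-fold for eIF3b.

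Of 23 histone chaperone genes, 21 had a peak, and METTL16 bound 16 (against 42.6% of all genes), eIF3a 14 (against 42.4%) and eIF3b 18 (against 60%). The background shares cover only names with a peak in some list, whereas the 23 include DAXX and NAP1L4, which had none. NASP, a chaperone of H3 and H4, had 7.68-fold and 15.9-fold for METTL16, 7.68-fold and 2.79-fold for eIF3a, and 17.0-fold and 8.64-fold for eIF3b. CHAF1A, a subunit of the CAF-1 complex that loads H3 and H4 at replication, had peaks in all 6 lists from 4.54-fold to 7.80-fold.

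Of 11 hepatocyte and HepG2 marker genes, 10 had a peak in at least 1 list. Enrichment over input does not measure expression, so this does not check the cell type. HNF4A had peaks in all 6 lists, AFP had 1.37-fold and 1.80-fold in the METTL16 lists alone, ALB had 2.75-fold in METTL16 replicate 2 alone, and TTR had none. METTL16 bound 8 of the 11 (against 42.6% of all genes), eIF3a 3 (against 42.4%) and eIF3b 6 (against 60%). The 11 include TTR, whereas the background shares cover only names with a peak in some list. Of 5 markers of other cells, each protein bound 1. COL1A1 and CD3E had no peak, PTPRC had 14.6-fold in 1 list, and PECAM1 had 2.70-fold to 4.12-fold in 4. HBB had 576-fold and 986-fold in the METTL16 lists, 1.47-fold in eIF3a replicate 1 and 1700-fold in eIF3b replicate 1. The part of these in the histone values was not tested.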

How the data were processed

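Peak lists of 6 RIP samples were used. Per the study's methods and labels, the authors mapped reads with STAR to GRCh38 and ran exomePeak on RIP and input, giving 1 list per sample; versions, the annotation and which input served each RIP are not given in the sources used here. The authors deposited for each peak a p-value, its log10 (treated as a score), and a fold enrichment, the ratio of RIP to input. No read counts were used, so depth is unknown. The authors' p-values and folds were used only to describe, rank and filter peaks.

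The members and lists were chosen with earlier results of these data known. Genes were matched to GENCODE release 44 through RefSeq older symbols (10291 names current, 464 older, 75 unmatched). Starts of deposited blocks were counted from 0 and are printed from 1. Replication-dependent and polyadenylated classes followed gene nomenclature, and the stem-loop and windows of 50 bases shared with other genes were found by sequence. A gene took its highest peak per list. limma 3.58.1 in R 4.3.3 compared log2 folds of genes with a peak in all 6 lists, each list centred on its median, with Benjamini-Hochberg adjustment at 0.05; the script was tested on simulated data. Shares carry 95% Wilson intervals (statsmodels 0.14.6 in Python 3.11.15). Members are named except 1 polyadenylated gene, which is counted in its class but not reported here; values in every list are given for those with peaks in all 6 lists, the 5 of highest mean fold per class, those bound by 1 protein and without a peak of another, and H2AX, H3-3A, H3-3B, H2AZ1, H2AZ2 and H1-10. Alternatives were a fold of at least 4, 5000 peaks per list, either replicate, each replicate left out, the smallest-p peak, the stem-loop as class, other normalization, a replicate block and, chosen after seeing the data, members without shared windows.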

Additional observations from a re-analysis of the deposited data

How the results depend on the processing

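Of 158 alternative values for 27 results, 128 stayed the same, 29 moved and 1 reversed. For medians and shares, same meant within 1 SD of the 2 replicates, which a value with 1 of them left out always meets. The replication-dependent median fold in eIF3b, 5.362, thus counted as same at both 1.51 and 9.215. For counts of genes, same meant a close ratio, and the limma counts were 0 throughout. The 128 are therefore no measure of robustness. With a fold of at least 4, METTL16 bound 3 replication-dependent and 1 polyadenylated genes, eIF3a 0 polyadenylated, and eIF3b 1 and 1. With 5000 peaks per list, METTL16 bound 3 polyadenylated genes and eIF3b 1 replication-dependent and 3 polyadenylated. With a peak in either replicate, METTL16 had 21 replication-dependent genes, eIF3a 10 with 8 polyadenylated, and eIF3b 9 with 10. Without shared windows, METTL16 bound 3 replication-dependent and 4 polyadenylated genes. Leaving out 1 replicate gave replication-dependent counts of 10 to 21 for METTL16, 0 to 10 for eIF3a and 6 to 6 for eIF3b, and polyadenylated counts of 3 to 8 for eIF3a and 6 to 9 for eIF3b.

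The median highest fold of replication-dependent genes in eIF3a was 1.56 with the smallest-p peak and 2.12 with classes by stem-loop, against 1.99 from its 1 list, and that of polyadenylated genes in eIF3b was 3.07 with the smallest-p peak, against 3.27. At a fold of at least 4, only genes with such a peak entered the shares below. These were 3 and 4 replication-dependent genes in the METTL16 lists and 3 in eIF3a replicate 1. Their peaks covered 41.4% and 16.9% of their mRNA bases for METTL16 and eIF3a. For METTL16, 42.4% of the bases of polyadenylated genes with such a peak were covered. A stem-loop peak was seen in 29.2% and 33.3% of the replication-dependent genes with such a peak, for METTL16 and eIF3a. Among those with any peak, it was 9.76% and 10%. The genes counted differ between the cutoffs, so these shares do not show more peaks on the stem-loop.

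The number of genes called by limma was 0 under every alternative, with a replicate block too (309, 222 and 205 genes at an unadjusted p under 0.05, in the order of comparisons above). Samples with the same replicate number did not deviate together in these folds (r of 0.05, -0.03 and 0.01 over 2730 genes). Peak folds alone cannot show whether such samples shared a culture or batch. For H1FX, eIF3a minus eIF3b turned to 0.11 on the log2 scale without eIF3a replicate 1, with a range of -0.45 to 0.11 when 1 replicate was left out. Depth is unknown, so a gene without a peak is not shown to be unbound.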
